A study of Arabidopsis thaliana with 16 samples.

Results

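In sorted guard cells of Arabidopsis thaliana, 805 regions carried a listed peak of the histone mark H3K27me3 in the FAMA-LGK line and none in wild type (WT). They were chosen by peak calls alone, as the peaks of the FAMA-LGK H3K27me3 list on chromosomes 1 to 5 that no peak of the WT H3K27me3 list overlapped by 1 bp or more. They made up 805 of the 7652 peaks of the FAMA-LGK list, which is 10.5%, and 0.603 of its 17.4 Mb. The other 6847 peaks were overlapped by a WT peak and are called shared here, and 551 of the 7386 WT peaks, listed in WT only, form the reverse set.

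Guard cells had been taken by fluorescence-activated sorting from protoplasts of aerial seedling tissue at 12 days post germination. WT seedlings were compared with fama-1 mutants that carried FAMA-LGK under the FAMA promoter, described by the series as genetically reprogrammed guard cells. H3K27me3 and H3K4me3 were each measured by chromatin immunoprecipitation and sequencing in 2 ChIP and 2 input libraries per genotype. Each deposited list stands for those libraries together, so no replicate spread and no test between genotypes could be given. The labels do not state how many transgenic lines were used or which reporter was sorted on, and a sorted fraction can hold other cell types.

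H3K27me3 is placed by Polycomb repressive complex 2 and marks genes held silent, in plants typically as domains over gene bodies. H3K4me3 is found near the starts of transcribed genes. FAMA is the bHLH transcription factor that completes guard cell differentiation. The LGK form carries a changed version of the short motif through which FAMA binds RBR1, the retinoblastoma-related protein. Guard cells of such plants do not hold their fate and can re-enter earlier steps of the stomatal lineage.

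The FAMA gene itself (AT3G24140, FMA in the annotation) had no H3K27me3 within its body and 500 bp on each side in either list. Its H3K4me3 there covered 2886 bp in WT against 627 bp in FAMA-LGK, and reads of the construct and of the gene cannot be told apart. These were low peaks. Their highest fold of ChIP over input was 1.53 in the WT list, where it was 5.42 at TGG1, and 1.35 in the FAMA-LGK list. Of 33 guard cell genes, 30 were called for H3K4me3 (at least 150 bp of the gene body covered) in WT and 28 in FAMA-LGK. Of 24 mesophyll photosynthesis genes, 24 and 22 were called, so these lists do not separate guard cells from mesophyll, and the part of other cells in the results was not tested. Positions are those of the TAIR10 build, counted from 1, and the fold and −log10 q of a peak are the authors' own values, used only within a list. Exact Clopper-Pearson 95% intervals of shares cover counting error only, and neighbouring peaks are not independent of each other.

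The values that chose the regions are given first, as a description. The 805 peaks were 299 to 4732 bp wide with a median of 635 bp, against a median of 1661 bp for the shared peaks. Their fold of ChIP over input ran from 1.40 to 4.10 with a median of 1.92, against 3.21 for the shared peaks. Their −log10 q ran from 2.45 to 65.0 with a median of 8.35, against 37.4. They were thus mostly narrow, low peaks of their list. By −log10 q, 670 of them lay in the lowest 25% of the list, where they were 35.0% of all peaks, 122 in the next 25% and 13 in the 25% above that. None of the 805 lay in the highest 25%. Because of this, the 1244 shared peaks in the lowest 25% of the list by −log10 q, with a median width of 804 bp, are used beside them as the shared peaks most like them in strength.

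**Figure D1:**
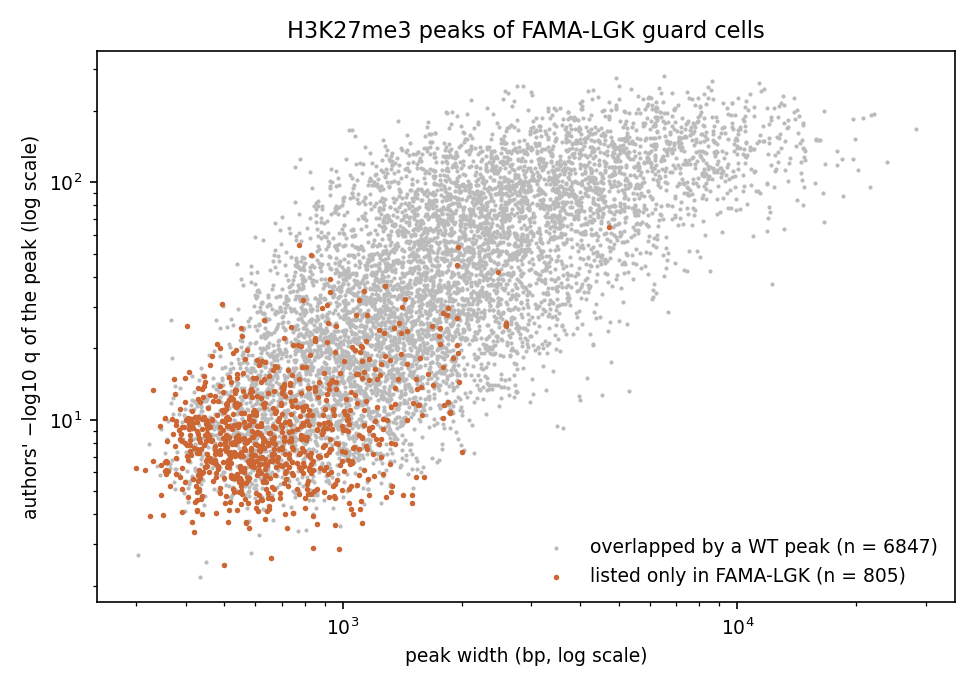
Width in bp (horizontal, log scale) against the authors' −log10 q (vertical, log scale) of each H3K27me3 peak of the FAMA-LGK list, grey where a WT peak overlaps it and orange where none does. The 805 peaks listed only in FAMA-LGK sit at the narrow, low end, with a median of 635 bp and 8.35, and 1 peak, at 4732 bp and 65.0, stands apart from the others.

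The absence of a WT peak is limited by what the WT list holds. Peak names are numbered from the highest −log10 q downwards (Spearman −1.0 between number and −log10 q in each list), and the numbers ran to 9094 in WT and 9096 in FAMA-LGK. Of the last 25% of these numbers, 28.8% were listed in WT and 38.0% in FAMA-LGK, against 98.7% and 99.5% of the rest. Of the 805 regions, 406 (50.4%) came from that last stretch. A low WT peak that is not in the list may therefore lie on some of them, and how many was not tested.

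The distance to the nearest WT peak ran from 18 to 897920 bp, with a median of 1472 bp. It was up to 500 bp for 174 regions (21.6%), 501 to 1000 bp for 145, 1001 to 5000 bp for 247 and over 5000 bp for 239 (29.7%). The regions just inside the rule lay 18, 24 and 34 bp from a WT peak, at chr3:158419-159232, chr3:7037693-7038554 and chr2:7375001-7375733, the last on MEE15. Those just outside it were overlapped by 3, 19 and 29 bp, at chr1:22779890-22780641, chr2:11356557-11357398 and chr1:22994064-22994617. The cutoff thus parts peaks that differ little in their distance from a WT edge.

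Away from the H3K27me3 lists themselves, the regions differed from other H3K27me3 peaks in where they lay. Of the 805, 425 touched a protein-coding gene (52.8%, 49.3 to 56.3%) and 316 touched no annotated gene of any kind (39.3%, 35.9 to 42.7%). The share was 79.8% among all shared peaks, 63.1% (60.4 to 65.8%) among the shared peaks in the lowest 25% and 68.8% (64.7 to 72.6%) among the WT-only peaks. Summits lay inside such a gene for 49.8% of the regions, and for 59.7% and 65.5% of the latter sets. Of the remaining regions, 33 touched a pseudogene and 31 only an RNA gene. Of the 380 outside protein-coding genes, 186 (48.9%) lay within 1000 bp of one and 16 lay more than 5000 bp away.

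The share inside genes followed the distance to the nearest WT peak. It was 39.1% among regions up to 500 bp from one, 46.9% at 501 to 1000 bp, 53.8% at 1001 to 5000 bp and 65.3% beyond that. Regions near a WT peak thus lay outside genes more often than those far from one. The median distance was 1072 bp for the regions outside protein-coding genes and 2411 bp for those inside. Of 5 regions on microRNA genes, 1 lay on MIR165a, whose product targets class III HD-ZIP genes of leaf polarity and vascular patterning. It was at chr1:78772-79183, and 394 bp of it carried H3K4me3 in WT and 412 bp in FAMA-LGK. The others lay on MIR395b and MIR169f, of the sulfate and NF-YA regulating microRNA families, and on MIR3933 and MIR420.

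All chromosomes held regions, at 9.34 to 11.7% of their FAMA-LGK peaks. Over 121 bins of 1 Mb, the median number was 7 and the highest 19, at 1 to 2 Mb of chromosome 2, and 3 bins had none. In the 25% of bins with the fewest protein-coding genes, 143 of 963 FAMA-LGK peaks were listed only there (14.8%, 12.7 to 17.3%), against 9.27 to 10.2% in the other bins. The WT-only share ran the other way, from 5.96% in the bins with the fewest genes to 8.58% in those with the most. Most regions had no other region within 10000 bp. With gaps of up to 10000 bp joined, the regions formed 676 clusters. Of these clusters, 571 held 1 region and 21 held 3 or more, with 4 at most. Shared peaks were not counted in them. The nearest other FAMA-LGK H3K27me3 peak, shared or not, lay at a median of 1140 bp from a region, with quartiles of 424 and 4945 bp.

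The H3K4me3 lists come from other libraries and played no part in choosing the regions. H3K4me3 was listed on fewer of them in FAMA-LGK than in WT. In WT, 134 of the 805 regions overlapped an H3K4me3 peak (16.6%, 14.1 to 19.4%), and in FAMA-LGK 88 did (10.9%, 8.86 to 13.3%). Over all 7652 FAMA-LGK H3K27me3 peaks, 16.5% overlapped one in WT and 15.4% in FAMA-LGK. H3K4me3 was listed in WT alone on 3.53% of these peaks, in FAMA-LGK alone on 2.51% and in neither on 81.0%. The regions were thus near the whole list in WT and under it in FAMA-LGK. On 83 of the 805 regions H3K4me3 was listed in both genotypes, on 51 (6.34%) in WT alone and on 5 (0.621%) in FAMA-LGK alone. The other 666 (82.7%) had none in either. The 5 with H3K4me3 in FAMA-LGK alone are named after their values were seen. They lay on AT1G61300, on RLP12, a receptor-like protein gene, on the glutathione transferase gene GSTF3, on AT2G05875 and AT2G13275, and on the cytochrome P450 gene CYP706A1.

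Counted in length, 81 regions (10.1%, 8.07 to 12.4%) carried less H3K4me3 in FAMA-LGK than in WT and 16 (1.99%, 1.14 to 3.21%) carried more. Over all 7652 FAMA-LGK H3K27me3 peaks, 8.64% carried less and 7.65% more. Of the shared peaks in the lowest 25%, 3.78% (2.79 to 4.99%) carried less and 5.55% (4.34 to 6.97%) more. The regions were thus near the whole list for less H3K4me3 and under it for more. Beside the shared peaks in the lowest 25%, they were above for less and under for more. The balance between the directions also set the regions apart. Among those that changed, 83.5% (74.6 to 90.3%) carried less, with a median change of -272 bp. The same share was 50.5% (47.5 to 53.4%) of the shared peaks that changed and 40.5% (31.5 to 50%) of the shared peaks in the lowest 25%. It was 21.8% (14.8 to 30.4%) of the WT-only peaks, whose H3K4me3 went mostly the other way.

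In summed length, H3K4me3 covered 82062 bp of the 602993 bp of the regions in WT (13.6%) and 50296 bp (8.34%) in FAMA-LGK, a ratio of 0.613. The ratio was 0.963 over the shared peaks, 1.14 over the shared peaks in the lowest 25% and 1.24 over the WT-only peaks. Of the WT length, 46548 bp (56.7%) still carried H3K4me3 in FAMA-LGK and 35514 bp (43.3%) did not. On most of their WT H3K4me3 length, therefore, both marks were listed in FAMA-LGK, and whether they sat in the same cells cannot be told apart from a mixture of cells.

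**Figure D2:**
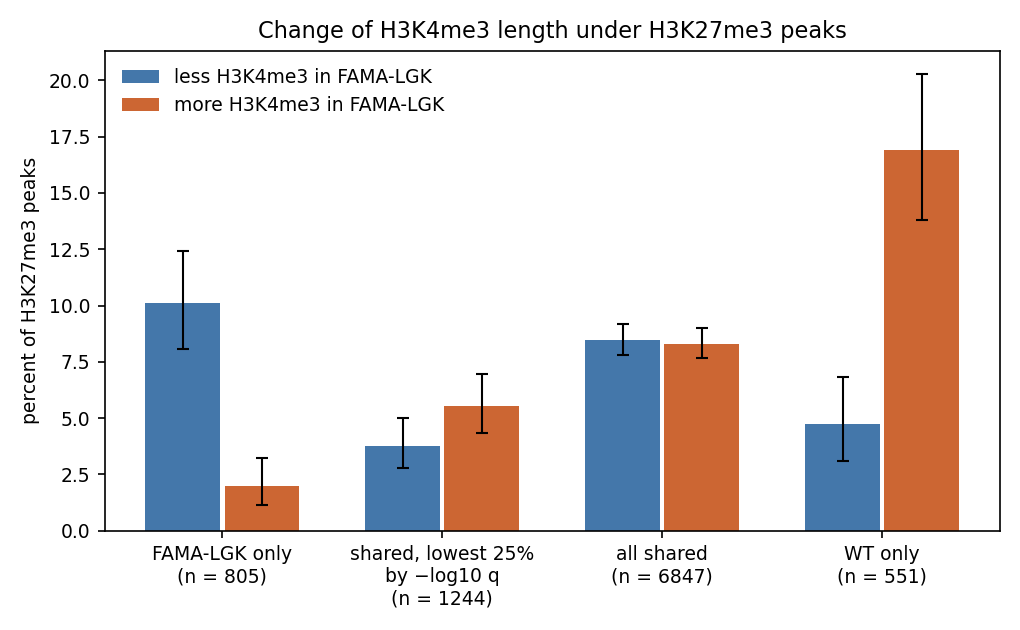
Percent of H3K27me3 peaks with less (blue) or more (orange) H3K4me3 length in FAMA-LGK than in WT, for 4 sets of peaks, with exact 95% intervals for counting error as bars. Peaks listed only in FAMA-LGK show 10.1% with less against 1.99% with more, the shared peaks show about equal shares, and the WT-only peaks show 4.72% against 16.9%.

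H3K4me3 differences lay mostly in the regions inside genes. Of the 425 regions that touched a protein-coding gene, 124 (29.2%) overlapped H3K4me3 in WT and 83 (19.5%) in FAMA-LGK, with 73 carrying less and 14 more. Of the 380 outside, 10 (2.63%) and 5 (1.32%) overlapped it, with 8 carrying less and 2 more. By distance to the nearest WT peak, those up to 500 bp away had H3K4me3 in WT on 5.75%, and those over 5000 bp away on 22.6%. The latter also lay more often in genes. Less H3K4me3 was more frequent than more in each of the 4 distance classes, at 6 against 2, 16 against 4, 29 against 4 and 30 against 6 regions.

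The strongest regions had H3K4me3 in WT more often than the others. In the 25% of the regions with the highest −log10 q, 27.9% overlapped H3K4me3 in WT and 18.4% in FAMA-LGK, and 39 carried less against 2 with more. In the lowest 25% the shares were 15.8% and 10.9%, with 15 against 7. The difference between these counts was not tested. Widths differed too, with medians of 793 bp in the highest 25% and 614 bp in the lowest.

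Only 13 regions reached the upper 50% of the FAMA-LGK list by −log10 q, and they are given here after their values were seen. Of these, 9 overlapped H3K4me3 in WT and 5 in FAMA-LGK, 8 carried less and none more, and 11 touched a protein-coding gene. The highest lay on TGG1, described below. The next was at chr1:104614-105387 on AT1G01250, with a fold of 3.78, and H3K4me3 covered all 774 bp of it in WT and 576 bp in FAMA-LGK. The third, at chr5:9009725-9011679 with a fold of 3.77, covered the whole of AT5G25840. H3K4me3 covered 1587 bp of that region in WT and 0 bp in FAMA-LGK.

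PYL2, which encodes a receptor of the drought hormone abscisic acid, carried the fourth at chr2:11094693-11095521, with a fold of 3.62. The region lay on 829 bp, or 64.5%, of the gene. H3K4me3 within the gene and its 500 bp flanks covered 1474 bp in WT against 726 bp in FAMA-LGK. The fifth, at chr5:9001485-9003437, lay 798 bp from the nearest protein-coding gene, on the RNA gene AT5G04115, without H3K4me3 in either list. It is a near neighbour of the third, and GATA12, a GATA transcription factor gene between them, lay under another of the regions. GATA12 had 955 bp of its body covered, and its H3K4me3 was 1432 bp in WT against 1259 bp in FAMA-LGK. The others of the 13 lay on PHO1, AtVEX1, NIA2 and ADS2, described below, on AT3G48970, AT1G79770 and AT2G18970 with AT2G18969, and at chr1:6497443-6498722 on no annotated gene.

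At the level of genes, 408 of 27444 protein-coding genes (1.49%) had at least 150 bp of their body under the regions, and 415 regions (51.6%) made these calls. The covered length had a median of 589.5 bp and reached 3218 bp. In 150 genes it was at least 50% of the body and in 21 the whole body. Of the 408, 284 (69.6%) had no WT H3K27me3 within the body or 500 bp of it, and 124 (30.4%) had a WT peak elsewhere at the gene. Of the 124, 118 had longer H3K27me3 in FAMA-LGK, within the body and flanks, and 6 did not. That count follows largely from the rule, since the genes were called from H3K27me3 listed only in FAMA-LGK. Neighbouring genes were called in 20 pairs and in no longer run, among them CYSD2 with DES1, and TGG1 with AT5G26010.

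The 408 genes more often had shorter than longer H3K4me3 in FAMA-LGK. The covered length, counted in the body and 500 bp on each side, was shorter in 147 (36%), longer in 45 (11.0%) and the same in 1, and 215 had none in either list. Over all protein-coding genes 30.9% were shorter and 39.0% longer. The share shorter was near that of all genes while the share longer was well under it. However, 52.7% of the 408 and 29.6% of all genes had no H3K4me3 in either list. Such genes count as neither shorter nor longer. Of the genes called from shared peaks alone, 16.0% were shorter, 16.1% longer and 67.8% without H3K4me3 in either list. Of those of the 408 that changed, 76.6% (69.9 to 82.4%) were shorter, with a median change of -124 bp. This share was 49.8% (47.6 to 52.0%) for the genes called from shared peaks alone. It was 24.6% (19.4 to 30.4%) for those called from WT-only peaks.

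Large differences were more one-sided. H3K4me3 was shorter by 500 bp or more in 59 of the 408 genes (14.5%), where 2.97% of all protein-coding genes were. It was longer by 500 bp or more in 8 (1.96%), where 3.17% of all were. The H3K4me3 call of the gene body was lost in 45 (11.0%), against 2.03% of all protein-coding genes, and gained in 8 (1.96%), against 1.99%. Both lists gave a call in 98. Genes without WT H3K27me3 had 117 shorter against 28 longer (80.7%, 73.3 to 86.8%, of changed), and genes with WT H3K27me3 elsewhere had 30 against 17 (63.8%, 48.5 to 77.3%). The difference between those shares was not tested.

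The shorter H3K4me3 did not always lie under the new H3K27me3. In 103 of the 147 genes (70.1%) a region sat on WT H3K4me3 within the gene body, and in 71 (48.3%) it sat on a stretch that had lost it in FAMA-LGK. In the others of the 147, no region in the gene body sat on WT H3K4me3, as on SUS3 below, or it sat on H3K4me3 that was still listed.

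**Figure D3:**
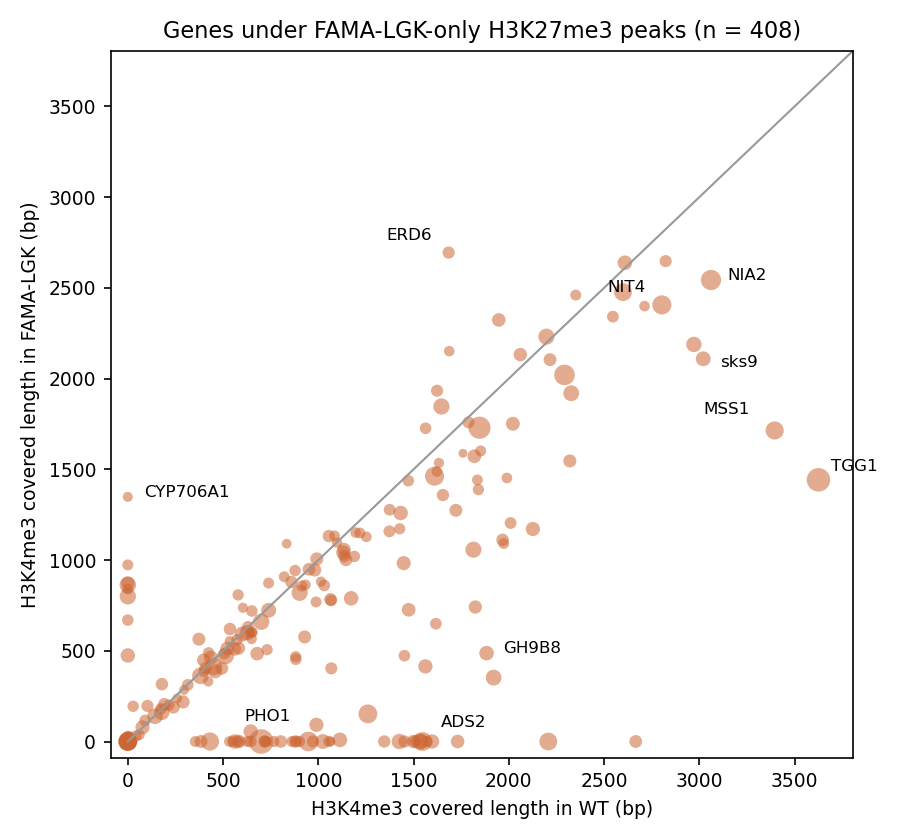
H3K4me3 covered length (bp, body and 500 bp flanks) of each of the 408 genes called from FAMA-LGK-only H3K27me3 peaks, in WT (horizontal) and FAMA-LGK (vertical), with larger points for longer H3K27me3 in the body and a grey line at equal lengths. Of the genes, 147 lie below the line and 45 above it, and a row of points at 0 bp in FAMA-LGK holds genes such as ADS2 at 1597 bp in WT.

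TGG1 (AT5G26000), a myrosinase abundant in guard cells that cleaves glucosinolates, lay under the widest and highest of the regions, chr5:9078549-9083280. The peak had a fold of 4.10, lay 1027 bp from the nearest WT peak and covered the whole gene. H3K4me3 at TGG1 covered 3625 bp in WT against 1442 bp in FAMA-LGK. The highest H3K4me3 fold there was 5.42 within the WT list and 1.7 within the FAMA-LGK list. These folds belong to separate lists and are not compared with each other. The neighbouring myrosinase gene TGG2 had 4070 bp of H3K27me3 in both lists and no H3K4me3 in either. The WT peak next to TGG1 thus ended before the gene, and in FAMA-LGK a separate peak lay on it.

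NSP1, a nitrile specifier that directs the products of glucosinolate breakdown, had 1311 bp under 2 regions, the stronger at chr3:5566944-5567796 with a fold of 2.71. Its H3K4me3 was 1532 bp in WT against 0 bp in FAMA-LGK. The related genes NSP3 and NSP4 carried H3K27me3 in both lists, at 2418 and 2472 bp for NSP3 and 2433 and 2441 bp for NSP4. H3K4me3 at NSP3 also went from 942 bp in WT to 0 bp in FAMA-LGK, without a region on it. NIT4, a nitrilase that detoxifies cyanoalanine, had 1848 bp under a region at chr5:7379381-7381228 and kept most of its H3K4me3, at 2803 and 2406 bp. NSP1, NIT4 and TGG1 were the 3 of 37 glucosinolate and nitrile genes that were called (8.11%, beside 1.49% of all protein-coding genes), where 23 carried H3K27me3 in WT, and H3K4me3 was shorter in all 3.

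PHO1, which exports phosphate and acts in stomatal responses to abscisic acid, had the longest stretch under the regions, 3218 bp on 53.0% of its body. It came from 2 peaks, the stronger at chr3:8388923-8391399 with a fold of 3.38 and no H3K4me3 in either list. H3K4me3 at PHO1 was 700 bp in WT against 0 bp in FAMA-LGK, at one end of the gene, where the second peak lay. PHO1 was the only called gene of 15 in the phosphate list (6.67%, beside 1.49% of all protein-coding genes).

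NIA2, the major nitrate reductase, had 2093 bp under 2 regions, the stronger at chr1:14158530-14159663 with a fold of 3.18. Its H3K4me3 was 3061 bp in WT against 2543 bp in FAMA-LGK, so the regions lay on H3K4me3 that was still listed. The second nitrate reductase gene, NIA1, carried H3K27me3 in both lists, at 1731 bp in WT against 1083 bp in FAMA-LGK, with H3K4me3 of 1429 and 1805 bp. CYSD2, a cysteine synthase gene, had 1494 bp and its neighbour DES1, a cysteine desulfhydrase that releases hydrogen sulfide in guard cells, 1322 bp. Their folds were 1.67 and 1.66, and both calls fell away when a −log10 q of 5 or more was required. CYSD2 had no H3K4me3 and DES1 had 513 and 471 bp. NIA2, CYSD2 and DES1 were the 3 called genes of 30 in nitrogen and sulfur metabolism (10%, beside 1.49% of all protein-coding genes). Of the 30, 8 carried H3K27me3 in WT.

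Of the 33 guard cell genes, 3 were called (9.09%, beside 1.49% of all protein-coding genes), namely TGG1, SUS3 and SCAP1, where 6 carried H3K27me3 in WT. SUS3, a sucrose synthase gene of guard cells, had 1794 bp under a region at chr4:996900-998693 with a fold of 2.45. It lay 468 bp from a WT peak that covered 671 bp at SUS3. H3K4me3 at SUS3 was 1548 bp in WT against 0 bp in FAMA-LGK, and it lay beside the region, in part on the H3K27me3 peak listed in both genotypes. SCAP1 (AT5G65590), a Dof transcription factor of guard cell maturation, had 562 bp under a region at chr5:26212400-26212961 with a fold of 1.77. H3K4me3 at SCAP1 was 2009 bp in WT against 1204 bp in FAMA-LGK. All 3 thus had shorter H3K4me3. GC1 (AT1G22690), of the same list, had 1579 bp of H3K4me3 in WT, none in FAMA-LGK and no H3K27me3 in either list, so such losses were also found away from the regions.

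**Figure D4:**
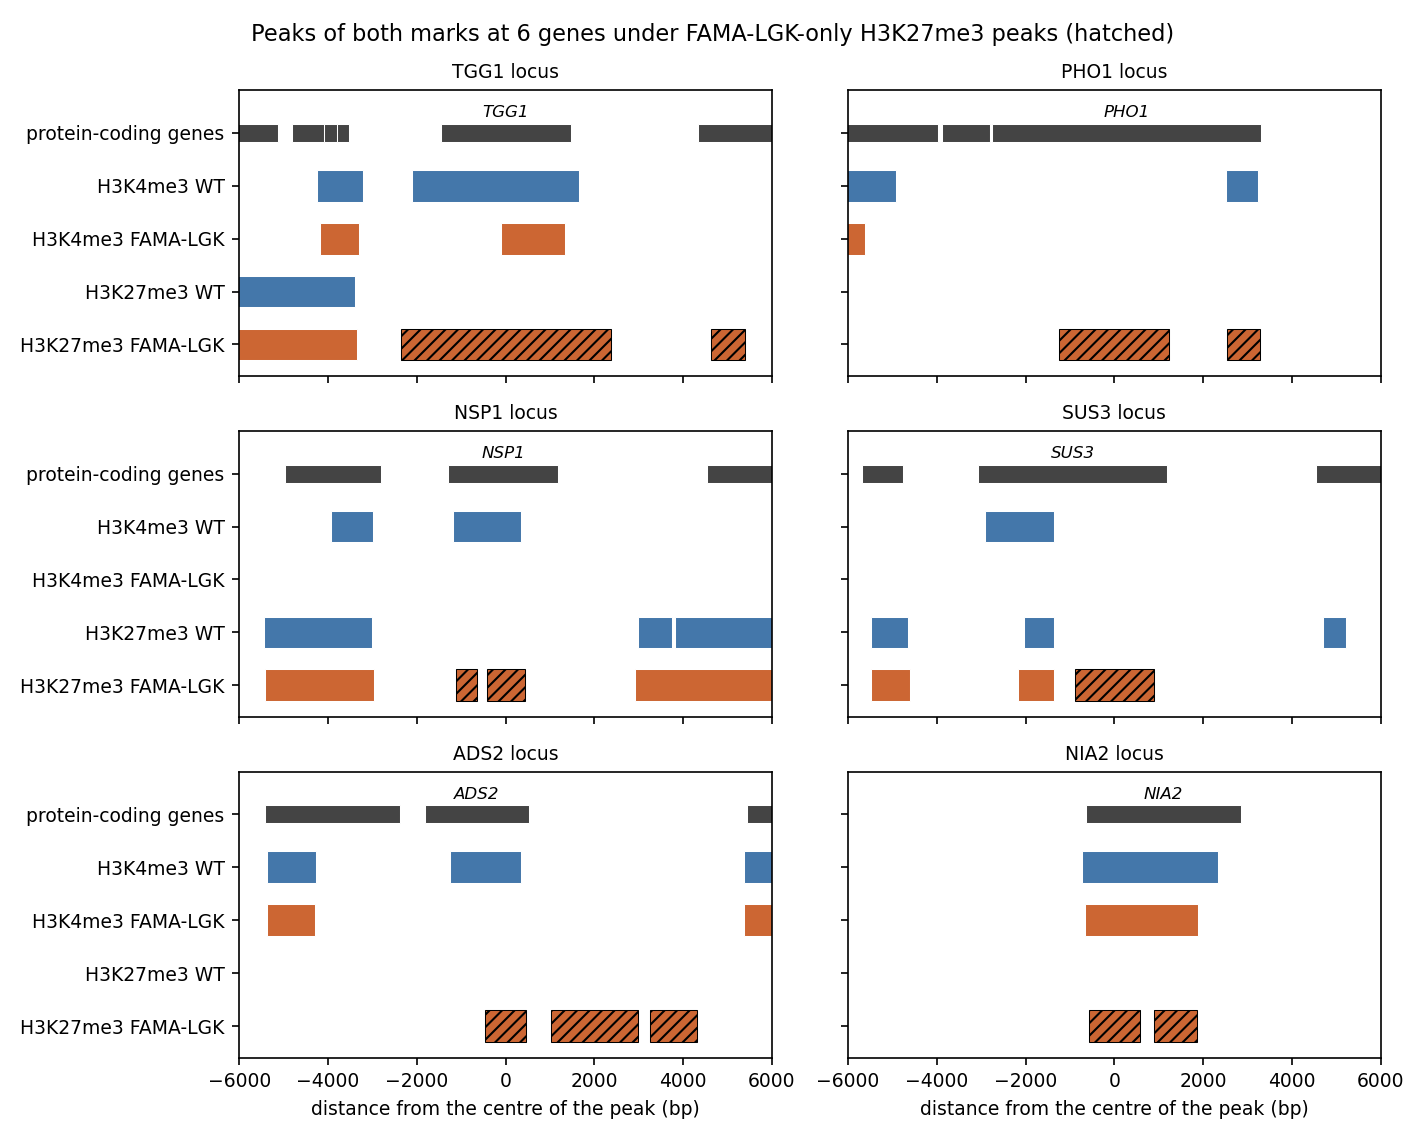
Listed peaks of both marks (WT blue, FAMA-LGK orange) and protein-coding genes (dark grey) around 6 genes, by distance in bp from the centre of the strongest FAMA-LGK-only H3K27me3 peak, with hatching on the FAMA-LGK-only peaks. At TGG1 the 4732 bp region covers the gene, at NSP1 and ADS2 the WT H3K4me3 peak on the gene has no FAMA-LGK counterpart, at PHO1 the smaller of its regions lies on the WT H3K4me3, at SUS3 the region lies beside it, and at NIA2 both marks lie on the same stretch in FAMA-LGK.

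The stomatal lineage, cell cycle and chromatin lists had 1 call each, or 3.70%, 2.33% and 4.17% of their genes, beside 1.49% of all protein-coding genes. CYCD7;1, a cyclin of the guard mother cell division, was 1 of 27 stomatal lineage genes called, with 1301 bp under 2 regions, the stronger at chr5:417709-418473, and H3K4me3 of 700 and 660 bp. SIM, an inhibitor of cyclin-dependent kinases known from trichomes, was 1 of 43 cell cycle genes, with 398 bp and H3K4me3 of 654 and 601 bp. FIS2, a subunit of the seed form of Polycomb repressive complex 2, was 1 of 24 Polycomb and Trithorax genes. It had 551 bp on a gene with 1338 bp of H3K27me3 in WT and no H3K4me3, so the region lengthened a mark listed in both.

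No gene was called in the other 8 lists. They held 28 meristem, floral and embryo regulators, 21 auxin genes, 26 gibberellin, cytokinin and ethylene genes, 26 jasmonate and wounding genes, 24 mesophyll photosynthesis genes, 14 trichome and root hair genes, 17 vascular genes and 15 housekeeping genes. All 28 of the first carried H3K27me3 in both lists. In all, the 15 lists held 380 matched entries, of which 13 were called (12 genes, with TGG1 in 2 lists), beside 1.49% of all protein-coding genes.

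By the length of gene body covered, the 20 genes with a symbol, no WT H3K27me3 and the longest stretch included 15 with H3K4me3 in WT and 12 with it in FAMA-LGK. In all 15 it was shorter in FAMA-LGK, with changes of -4 to -2183 bp, and the other 5 had none. Beside those already named, HEN2, an RNA helicase of the nuclear exosome, had 1576 bp under a region and H3K4me3 of 2599 and 2476 bp. PP2C5, a protein phosphatase that acts on MAP kinases, had 1189 bp and H3K4me3 of 2327 and 1919 bp. The senescence nuclease gene BFN1 had 1160 bp and H3K4me3 of 178 and 161 bp, and MEE66 had 1168 bp and 143 and 139 bp. At BFN1 and MEE66, H3K4me3 was thus short and nearly equal in both lists.

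The glutathione transferase gene GSTL1 had 1071 bp under a region and 627 and 600 bp of H3K4me3. For sks9, of the multicopper oxidase-like SKU5 family, the values were 1010 bp, with H3K4me3 of 3020 and 2109 bp. LCV3 had 989 bp and H3K4me3 of 562 and 0 bp. Without H3K4me3 in either list were CYSD2, the serine carboxypeptidase-like gene SCPL12 (1120 bp), the plantacyanin gene ARPN (1110 bp), the extracellular lipase gene EXL4 (984 bp) and the cytochrome P450 gene CYP71B13 (964 bp). These are genes with no listed mark of transcribed chromatin in WT guard cells, and the regions there met no listed H3K4me3.

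**Figure D5:**
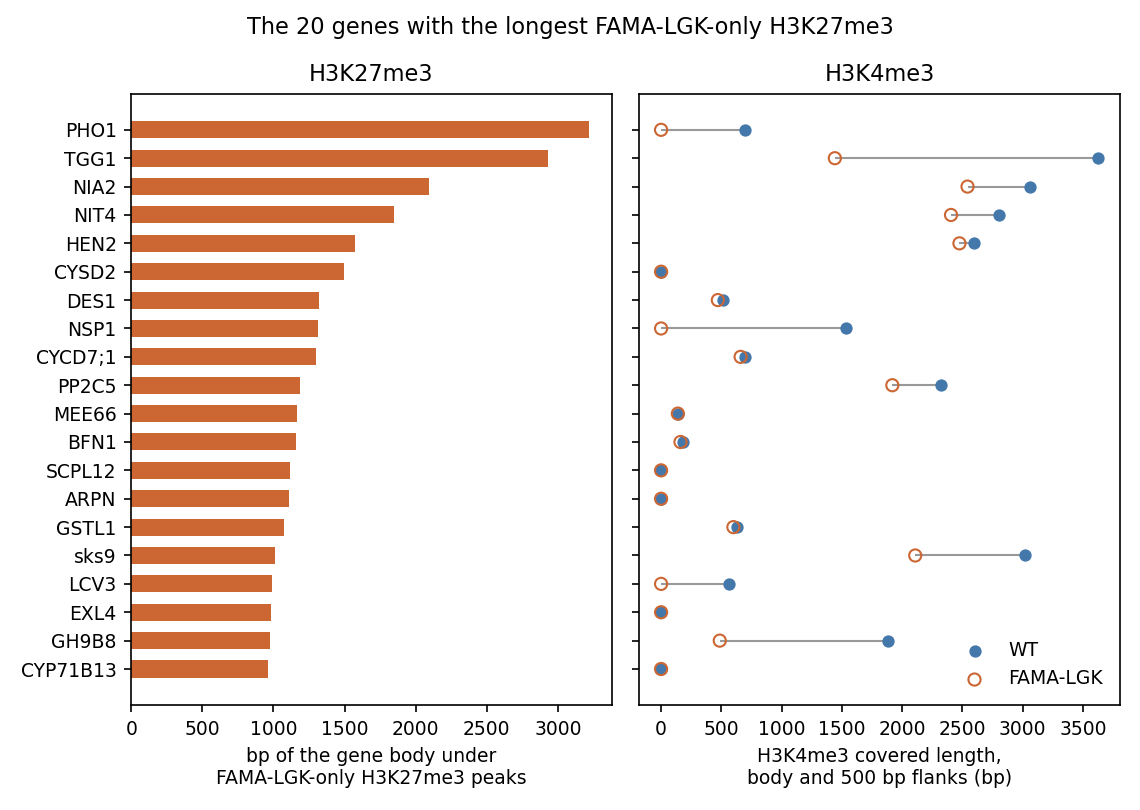
The 20 genes with a symbol, no WT H3K27me3 and the longest stretch of gene body under FAMA-LGK-only H3K27me3 peaks (left, bp), and their H3K4me3 covered length (right, bp, body and 500 bp flanks) in WT (filled blue) and FAMA-LGK (open orange). H3K4me3 is shorter in FAMA-LGK in 15 of them and absent from both lists in 5, and the widest gap is at TGG1, from 3625 to 1442 bp.

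Sugar transporter and cell wall genes were among the 10 called genes with a symbol that had the largest H3K4me3 losses. Larger losses than at TGG1 were found at AT1G33811, from 2666 to 0 bp, and AT1G75880, from 2207 to 0 bp, genes without a symbol that are named after their values were seen. The region on AT1G33811 was low, with a fold of 1.68 and a −log10 q of 4.66, under the limit of 5. AT1G75880 lay under 2 regions with folds of 1.74 and 2.12. MSS1, the hexose transporter also known as STP13, had 1641 bp under a region at chr5:9243684-9245324 and H3K4me3 of 3395 bp in WT against 1714 bp in FAMA-LGK. It also carried 1318 bp of H3K27me3 in WT. AtVEX1, the sugar transporter also known as SWEET5, had 930 bp at chr5:25230629-25231558, with a fold of 3.19, and H3K4me3 of 1562 and 414 bp. The endoglucanase genes GH9B8 and GH9B12, of a family that acts on cell wall glucans, had 977 and 787 bp under regions. H3K4me3 at GH9B8 was 1883 and 487 bp, and at GH9B12 it was 1499 and 0 bp. The highest H3K4me3 fold in the WT list was 5.22 at GH9B8 but only 1.92 at GH9B12. GH9B8 and GH9B12 were 2 of the 21 GH9 genes in the annotation (9.52%, beside 1.49% of all protein-coding genes called).

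Those of the 10 not yet described act in lipid metabolism and vesicle traffic. ADS2, a fatty acid desaturase gene, had 927 bp at chr2:13373017-13373943 with a fold of 3.15, 20407 bp from the nearest WT peak, and H3K4me3 of 1597 bp in WT against 0 bp in FAMA-LGK. KCR2, related to the ketoacyl reductase of fatty acid elongation, had 613 bp beside 516 bp of WT H3K27me3, and H3K4me3 of 1452 and 0 bp. RAB7A, a small GTPase of vacuolar traffic, had 551 bp under a region with a fold of 1.65 and H3K4me3 of 1508 and 0 bp, and its call also fell away at that limit. ADS2, KCR2 and RAB7A thus all went from H3K4me3 listed to none. Their highest H3K4me3 folds in the WT list were 4.78, 2.75 and 3.71.

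The largest H3K4me3 gains among called genes with a symbol were at CYP706A1, ERD6, GSTF3, RLP12 and RLP7. CYP706A1 had 324 bp under a region with a fold of 1.62, and H3K4me3 of 0 bp in WT against 1348 bp in FAMA-LGK. ERD6, a sugar transporter-like gene named for its early response to dehydration, had 606 bp, a fold of 1.62 and H3K4me3 of 1684 and 2694 bp. GSTF3, RLP12 and RLP7 had 445, 1317 and 1290 bp under regions with folds of 2.07, 1.79 and 1.65, and H3K4me3 of 0 bp in WT against 973, 863 and 800 bp. Without a symbol, and chosen after their values were seen, AT1G61300 went from 0 to 873 bp and AT2G13275 from 0 to 840 bp, under regions with folds of 2.02 and 2.37. The median fold of all regions was 1.92, so these genes lay under regions both below and above it. The calls of CYP706A1, ERD6 and RLP7 fell away at a −log10 q limit of 5.

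Across 30 gene families taken by symbol, 34 of 1294 genes were called, in 18 families, and no family had more than 4, where 1.49% of all protein-coding genes were called. Their called members are named from these counts, after the values were seen. The ABC transporter family ABCG had 4 of 42 (9.52%), at ABCG14, ABCG21, ABCG38 and ABCG39, of which ABCG14 had 26 bp of H3K4me3 in FAMA-LGK alone and ABCG21 had 2060 bp in WT against 2132 bp in FAMA-LGK. Of the CLE signalling peptide genes, 2 of 30 (6.67%) were called, CLE40 and CLE18, each with its whole body under a region and no H3K4me3. The receptor-like protein genes RLP7, RLP12 and RLP33 were 3 of 52 (5.77%), the MADS-box genes AGL87, AGL91 and AGL95 3 of 77 (3.90%), and the cytochrome P450 genes 3 of 229 (1.31%). With so few genes in a family, 1 call moves these shares widely, and none was tested.

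Some of the transcriptional regulators among the called genes are given here after their values were seen. WRKY42 was the only called gene of 67 in its family (1.49%, the same share as over all protein-coding genes). It had 1026 bp under a region on a gene that already carried H3K27me3. That mark covered 1178 bp in WT against 3383 bp in FAMA-LGK, and H3K4me3 at WRKY42 was 1024 and 0 bp. MYB12, a regulator of flavonol synthesis, had 418 bp and H3K4me3 of 726 and 0 bp, and MYB48 had 811 bp and no H3K4me3. AN3, a coactivator of leaf cell proliferation, had 589 bp and H3K4me3 of 972 and 0 bp. WRKY42, MYB12 and AN3 had thus also lost all of the H3K4me3 listed in WT. The highest H3K4me3 fold in the WT list was 2.61 at WRKY42, 2.5 at MYB12 and 2.08 at AN3. Other called regulators kept most of their H3K4me3. It was 1846 and 1729 bp at BLH2, 2292 and 2020 bp at BLH4, 1373 and 1158 bp at MYBC1 and 1196 and 1151 bp at GATA2. At BLH1 it was longer in FAMA-LGK, with 1947 bp in WT against 2323 bp.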

How the data were processed

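The files were 4 peak lists of guard cells, 1 per mark and genotype. The submitters' processing notes name Bowtie2, MACS2, CASAVA 1.8.2 and the genome build TAIR10. Settings, how replicates were combined and the peak threshold are not given in sources used here. Per the labels, each list goes with a signal track pooled over 2 ChIP and 2 input libraries. The deposited lists give a score (not used), a fold of ChIP over control as a ratio, and a −log10 q-value per peak, all by the authors. They give no read counts, so the depth is unknown and no interval between genotypes could be set.

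The regions were chosen by the overlap rule with earlier results of these data known, as were the gene lists, families and comparisons. A few list entries were set to a locus tag after matching. Overlaps and covered lengths were computed with Python 3.11.15, numpy 2.4.6 and pandas 2.3.3, intervals with scipy 1.17.1, and the overlap steps were tested on simulated data. A gene was called at 150 bp of its body, and H3K4me3 lengths were summed over the body and 500 bp flanks. Genes came from a RefSeq table of TAIR10.1, whose coordinates are not printed. In 20 chromosome segments, 92.1 to 98.2% of WT H3K4me3 summits lay in its protein-coding genes, and no shift of up to 3000 bp raised this by more than 0.165 percentage points.

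Named genes were the 20 with a symbol, no WT H3K27me3 and the longest covered body, the called symbol genes with the 10 largest H3K4me3 losses and 5 largest gains, and called list members. Of the peaks, the 5 highest, the 5 widest and the 3 on each side of the overlap cutoff were taken. Others are said to be chosen later. Sequences and promoter motifs, though planned, were not analysed here. With 1 list per group no test was run. In all, 14 alternatives were planned and 1 added.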

Additional observations from a re-analysis of the deposited data

How the results depend on the processing

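No result reversed, and of the values that answer a comparison 95 kept within 1 interval or 1.5 times and 25 moved. No paired analysis was possible because each list stands for its libraries together and holds no value per replicate; for the same reason no library could be left out. The number of regions was 486 when a WT peak within 1000 bp counted as shared, 412 when both H3K27me3 lists were limited to their 50% highest by −log10 q, and 13 with that limit on the FAMA-LGK list alone, an alternative chosen after seeing the data. Regions with H3K4me3 in WT were 19.7% (within 500 bp), 21.4% (within 1000 bp), 4.84% (the 50% highest H3K4me3 peaks) and 69.2% (the 13). In FAMA-LGK they were 14.6% (within 1000 bp), 13.8% (the 412), 2.36% (the 50% highest H3K4me3 peaks) and 38.5% (the 13). The share with less H3K4me3 among changed was 100% of the 13. Regions touching a protein-coding gene were 56.6% (within 500 bp), 59.5% (within 1000 bp), 75.2% (the 412) and 84.6% (the 13). Genes called were 150 with 50% of the body required and 12 from the 13. Genes with shorter H3K4me3 among changed were 69.8% (the 412), 89.7% (50% of the body), 83.5% (changes of at least 150 bp) and 100% (the 13). Lost H3K4me3 calls were 19 (50% of the body), 23 (the 50% highest H3K4me3 peaks) and 6 (the 13). The cause of these moves was not tested, beyond the smaller number of peaks or genes that each limit leaves and the shared peaks among the 412. Of the 35 named genes, 5 were still called with the 50% highest peaks (PHO1, TGG1, NIA2, AtVEX1 and ADS2) and 28 at a −log10 q of at least 5, where ARPN was lost too. SUS3, MSS1 and FIS2 were lost with 500 bp. Depth is unknown, so a WT peak under the threshold cannot be told from none.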
